A study of Mus musculus with 32 samples.

Results

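The gene group described here holds 10 of the 32285 genes in the count table of 32 mouse bladders. *Mylk2* encodes the myosin light chain kinase of skeletal muscle, and *Hhatl* encodes a membrane protein of the Hedgehog acyltransferase family that is found mainly in striated muscle. Both were chosen by their fitted fall between middle-aged and old untreated bladders, so that fall is a description here and carries no test. The other 8 genes were grouped by function, as the contractile machinery of striated muscle and the proteins that work beside it. They are *Acta1*, the skeletal α-actin of the thin filament, *Tnnt3*, the fast troponin T, *Myh1*, *Myh2* and *Myh4*, the fast myosin heavy chains, *Actn3*, the fast-fibre α-actinin of the Z-disc, *Ckm*, the muscle creatine kinase, and *Pvalb*, the calcium buffer parvalbumin. The working name of the group, skeletal muscle genes of the outlet, refers to the striated sphincter below the bladder. The question was whether *Mylk2* and *Hhatl* follow the 8 sarcomere genes from bladder to bladder.

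Striated and smooth muscle use different members of the same protein families. In skeletal fibres, thick filaments of fast or slow myosin pull on thin filaments of α-actin, and calcium acts through troponin. *Mylk2* is the kinase that phosphorylates the regulatory light chain of skeletal myosin, which raises the force of a twitch without starting it. In the detrusor, the smooth muscle of the bladder wall, calcium acts instead through the smooth muscle kinase *Mylk* and the smooth muscle myosin *Myh11*. The wall holds no skeletal fibres, whereas the external urethral sphincter at the outlet is built of them. How much of the outlet was collected with each bladder is not given in the sources used here.

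Total RNA was sequenced from whole bladders of untreated or gavaged female C57BL/6 mice. Untreated mice were taken at 2 months (young, 6 bladders), at 10 months (middle-aged, 5 bladders) and at 26 months (old untreated, 6 bladders). The 3 gavaged groups were also 26 months old and had been dosed from 21 to 26 months of age, on 3 days each month, with water (n = 5), with vehicle (60% Phosal 50 PG, 30% PEG 400 and 10% ethanol, n = 4) or with dasatinib at 5 mg per kg per day and quercetin at 50 mg per kg per day in that vehicle (D+Q, n = 6). Dasatinib and quercetin are given together as a senolytic, a treatment meant to remove senescent cells. Each bladder gave 15088372 to 52650259 counted reads. A floor of 3 counts in a bladder equalled 0.057 to 0.199 CPM, the unit of counts scaled to library size. The labels name no batch. Below, CPM are counts scaled by the trimmed mean of M values (TMM), and TPM, which divide by gene length, are used wherever levels of different genes are compared, since CPM are not corrected for length.

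All 10 genes were placed on mm10, the build of the deposited counts. *Mylk2* lies on chromosome 2, plus strand, from 152911352 to 152923068. *Hhatl* lies on chromosome 9, minus strand, from 121784016 to 121792507. *Myh2* (67171027 to 67197517), *Myh1* (67200052 to 67224575) and *Myh4* (67238029 to 67260446) follow each other on the plus strand of chromosome 11. *Tnnt3*, *Myh1*, *Myh2* and *Ckm* each overlap a gene on the other strand (*Prr33*, *Myhas*, 9430073C21Rik and A930016O22Rik). The library kit keeps the strand, but whether the counting used it is not stated, so reads of these pairs could be mixed.

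The fast myosins are shown first, because their coding sequences are so alike that short reads can fit more than 1 of them. These are the first 75 coding bases, 5′ to 3′, read from GENCODE vM21 transcripts. Capitals in *Myh2* mark the 4 positions where either relative differs, and capitals in the others mark where that gene differs from *Myh2*.

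Myh2: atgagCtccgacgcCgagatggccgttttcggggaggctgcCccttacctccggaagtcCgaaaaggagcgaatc

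Myh1: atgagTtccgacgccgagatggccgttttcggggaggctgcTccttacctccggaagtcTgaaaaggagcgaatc

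Myh4: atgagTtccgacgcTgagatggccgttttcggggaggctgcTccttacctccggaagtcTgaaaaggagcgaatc

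*Myh1* differed from *Myh2* at 3 of these positions and *Myh4* at 4. Over the whole coding sequence of 5826 bases, *Myh1* and *Myh2* were the same at 91.0% of positions. Of all stretches of 75 bases in annotated transcripts, 20.9% of those of *Myh1*, 15.5% of those of *Myh2* and 9.68% of those of *Myh4* also occur in another annotated gene, on either strand. Levels of these 3 genes are therefore uncertain to the extent that shared reads were dropped or split.

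The actins were compared in the same way, because smooth muscle actin is among the most abundant transcripts of the bladder. Capitals in *Acta1* mark positions where the smooth muscle actin *Acta2* or the cardiac actin *Actc1* differs, and capitals in those 2 mark where each differs from *Acta1*.

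Acta1: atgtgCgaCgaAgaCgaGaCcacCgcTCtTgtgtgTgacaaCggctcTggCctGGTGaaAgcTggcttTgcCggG

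Acta2: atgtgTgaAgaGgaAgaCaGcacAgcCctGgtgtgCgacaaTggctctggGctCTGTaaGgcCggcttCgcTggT

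Actc1: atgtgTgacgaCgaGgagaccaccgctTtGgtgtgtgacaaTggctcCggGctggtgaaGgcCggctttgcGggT

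In these 75 bases *Acta2* differed from *Acta1* at 21 positions and *Actc1* at 12. Only 0.394% of the 75-base stretches of *Acta1* occur in another annotated gene, namely in Gm47692 or *Actb*, and none occur in *Acta2* or *Actc1*. *Mylk2*, *Hhatl*, *Tnnt3*, *Actn3* and *Pvalb* share no such stretch with any annotated gene. For *Ckm* the share was 8.26%, all of it with A930016O22Rik on the other strand.

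The name of the group was then checked against the data, and the data went against it in part. Some genes of fast skeletal fibres were counted in every bladder (*Tnnt3*, *Myh2* and *Actn3* among the 10), whereas *Myh4* and *Pvalb* stood at or near 0 counts. *Acta1* averaged 942 TPM over the 32 bladders and *Ckm* 132 TPM. *Tnnt3* averaged 31.4 TPM, *Myh2* 10.1 TPM and *Actn3* 4.46 TPM. *Hhatl* (1.51 TPM), *Mylk2* (0.811 TPM) and *Myh1* (0.66 TPM) were low in every group. *Myh4*, the heavy chain of the fastest fibres, had 0 to 8 counts in a bladder and more than the floor of 3 in 6 of 32. *Pvalb*, which fast fibres hold in quantity, had 0 to 12 counts and passed the floor in 5 of 32. Both are thus not detectable above the floor in most of these libraries.

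**Figure D1:**
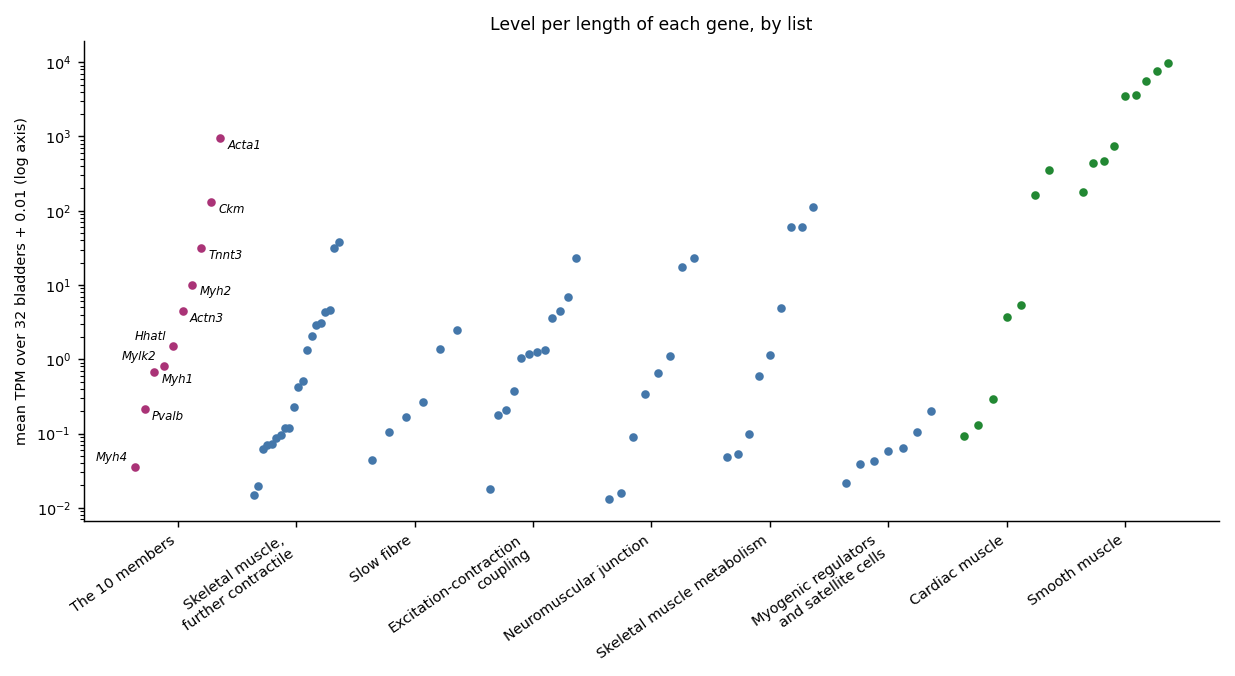
Mean level over the 32 bladders, as TPM + 0.01 on a log axis, of each gene in the group (purple), in 6 lists of skeletal muscle genes (blue) and in the cardiac and smooth muscle lists (green), sorted by level within a list. *Acta1* at 942 TPM lies within the range of the smooth muscle genes and *Ckm* at 132 TPM below it, whereas *Myh4* and *Pvalb* and 36 of the 62 skeletal muscle genes lie under 1 TPM.

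Other genes of skeletal muscle were uneven in the same way. The other lists, 6 in all, of further contractile proteins, slow fibres, excitation-contraction coupling, the neuromuscular junction, muscle metabolism and myogenic regulators, hold 62 genes. Of these, 36 had a mean under 1 TPM, 30 had 0 counts in at least 1 bladder, and 8 had a mean over 10 TPM. Myoglobin (*Mb*), the oxygen store of muscle, had 43 counts over all 32 libraries together. The fast troponin C *Tnnc2* had 23 counts in all, the mitochondrial creatine kinase *Ckmt2* 23 and the dihydropyridine receptor subunit *Cacna1s* 15. Titin (*Ttn*) averaged 0.052 TPM and nebulin (*Neb*) 0.217 TPM. By contrast the muscle enolase *Eno3* averaged 112 TPM, the fast troponin I *Tnni2* 37.5 TPM and the titin cap *Tcap* 31.7 TPM. For scale, the smooth muscle genes *Acta2*, *Myh11* and *Mylk* averaged 9893, 5525 and 1333 TPM. The genes below are therefore called the sarcomere genes, not skeletal muscle. In bulk tissue, fewer cells of a type and less RNA per cell cannot be told apart.

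*Mylk2* was low everywhere and lowest at 26 months. In young bladders it ranged from 0.94 to 1.76 CPM with a median of 1.23. In the 5 middle-aged bladders it stood at 1.05, 1.05, 0.747, 0.707 and 0.882 CPM. In old untreated bladders it ranged from 0.255 to 0.457 CPM with a median of 0.314. No old untreated bladder reached the lowest middle-aged one, a separation that the choice of the gene favoured, while young and middle-aged ranges overlapped. Here and for every gene below, the share of all genes whose group ranges do not meet was not counted. Such a separation is therefore a description, and whether it is unusual is not known.

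In the gavaged groups the *Mylk2* values were more spread. Water-treated bladders stood at 0.789, 0.641, 0.199, 0.507 and 0.711 CPM. Vehicle-treated bladders stood at 0.731, 0.508, 0.245 and 0.658 CPM. D+Q-treated bladders ranged from 0.277 to 0.725 CPM with a median of 0.415. All 15 gavaged bladders lay under the lowest young one. Ordered by mean, the groups ran young (1.31 ± 0.325, SD, n = 6), middle-aged (0.887 ± 0.161, n = 5), water (0.569 ± 0.232, n = 5), vehicle (0.536 ± 0.215, n = 4), D+Q (0.462 ± 0.154, n = 6) and old untreated (0.343 ± 0.083, n = 6), and each neighbouring pair in this order overlapped. These levels rest on 7 to 39 counts in a bladder. Counting error alone accounts for 46.5% of the within-group variance of *Mylk2*.

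*Hhatl* ran in much the same order of age. Young bladders ranged from 1.55 to 3.66 CPM with a median of 2.84. Middle-aged bladders stood at 1.28, 2.04, 1.77, 0.961 and 1.76 CPM. Old untreated bladders ranged from 0.368 to 0.898 CPM with a median of 0.518. Here too the old untreated and middle-aged ranges did not meet, and the young and middle-aged ranges overlapped.

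Water-treated bladders had 0.999, 0.721, 0.511, 0.527 and 0.142 CPM of *Hhatl*. Vehicle-treated bladders had 0.341, 0.669, 1.23 and 0.188 CPM. D+Q-treated bladders ranged from 0.397 to 0.998 CPM with a median of 0.653. The means of the 4 old groups, 0.572 to 0.677 CPM, differed from each other by less than the SD within any of them (0.191 to 0.459). The counts behind *Hhatl* ran from 4 to 113, and counting error accounts for 17% of its within-group variance.

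Of the thin filament genes, *Acta1* was the highest of the group and had its highest mean in young bladders. Young bladders ranged from 375 to 974 CPM with a median of 699. Middle-aged bladders stood at 366, 359, 447, 632 and 341 CPM. Old untreated bladders ranged from 271 to 385 CPM with a median of 340.1. The means of the gavaged groups were 324 ± 44.2 (water, n = 5), 332 ± 79.2 (vehicle, n = 4) and 366 ± 45.0 CPM (D+Q, n = 6). *Tnnt3* averaged 24.2 ± 8.62 CPM in young bladders (n = 6) and 10.8 to 14.2 CPM in the other 5 groups. One young bladder, at 12.1 CPM, lay within the middle-aged range.

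The fast myosin *Myh2* varied widely within groups. It ranged from 5.4 to 101 CPM in young bladders, with a median of 26.5. The middle-aged values were 2.78, 4.17, 4.79, 12 and 9.9 CPM, and the old untreated range was 12.1 to 32.3 CPM. The lowest old untreated bladder was thus just above the highest middle-aged one, the opposite direction to *Mylk2* and *Hhatl* over the same step. *Myh1* moved likewise, with a mean of 1.76 ± 1.04 CPM in young (n = 6), 0.595 ± 0.29 in middle-aged (n = 5) and 1.44 ± 0.349 in old untreated bladders (n = 6), and again the middle-aged and old untreated ranges did not meet.

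*Ckm* and *Actn3* were the steadiest, with within-group SDs of 0.131 and 0.284 on the log2 scale, the latter close to that of *Acta1* (0.311). *Ckm* averaged 136 ± 12.9 CPM in young, 122 ± 11.3 in middle-aged and 95.6 ± 6.02 in old untreated bladders (n = 6, 5 and 6), and the old untreated range lay under both others. *Actn3* had means of 3.26 ± 0.55, 3.89 ± 0.244 and 4.1 ± 0.494 CPM in the same 3 groups. Its gavaged groups were further apart, at 2.91 ± 0.836 (water, n = 5), 4.83 ± 1.38 (vehicle, n = 4) and 3.81 ± 0.524 CPM (D+Q, n = 6). *Myh4* summed to 52 counts over all 32 bladders and *Pvalb* to 68, and no fold is given for either.

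**Figure D2:**
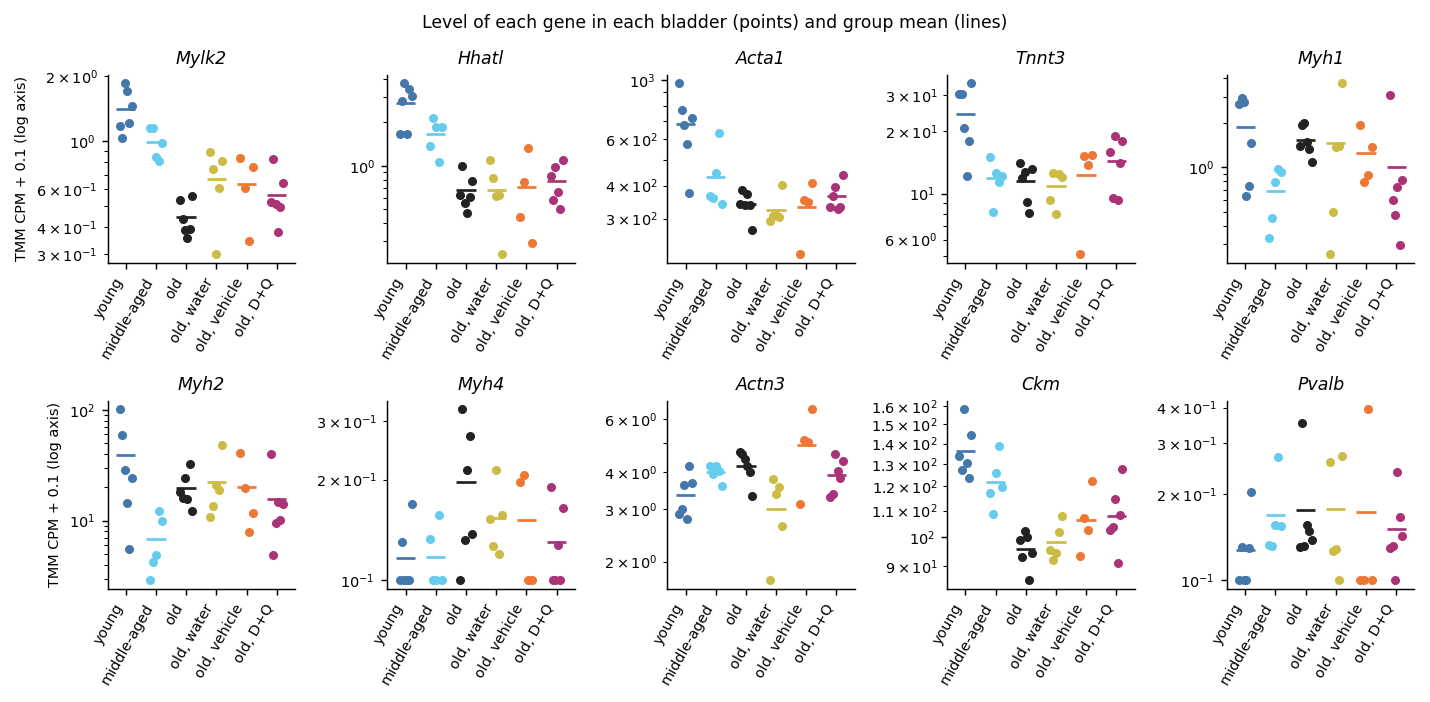
Level of each of the 10 genes in each of the 32 bladders (points), as TMM CPM + 0.1 on a log axis, with group means (lines). The means of *Mylk2*, *Hhatl*, *Acta1* and *Tnnt3* are highest in young bladders, those of *Myh1* and *Myh2* are lowest in middle age, and *Myh4* and *Pvalb* stay near 0 counts.

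Promoter sequence is shown for *Hhatl* and for the genes of the 2 sarcomere pairs whose levels were related within groups, *Acta1* with *Ckm* and *Myh1* with *Myh2*. RefSeq (GRCm38.p6, the build of mm10) held 9 promoters for 7 of the 10 genes, and those of *Mylk2*, *Tnnt3* and *Actn3* were not used here. Each line gives the 250 bases before the RefSeq start, in the direction of the gene. The RefSeq starts of *Myh1* and *Ckm* lie inside the gene spans of the counting annotation, and for *Myh1* no GENCODE transcript was found to start close to it. Capitals mark an E-box (CANNTG, the letters bound by myogenic factors), a CArG box (the serum response factor site) or a MEF2 site, searched on both strands. *Hhatl* has a second promoter further into the gene that holds none of the 3.

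Hhatl, chr9:121792508-121792757, minus strand: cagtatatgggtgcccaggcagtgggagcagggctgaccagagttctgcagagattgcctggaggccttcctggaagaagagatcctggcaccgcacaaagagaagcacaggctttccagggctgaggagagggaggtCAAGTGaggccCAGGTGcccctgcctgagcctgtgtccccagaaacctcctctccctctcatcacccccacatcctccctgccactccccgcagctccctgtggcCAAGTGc

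Acta1, chr8:123894776-123895025, minus strand: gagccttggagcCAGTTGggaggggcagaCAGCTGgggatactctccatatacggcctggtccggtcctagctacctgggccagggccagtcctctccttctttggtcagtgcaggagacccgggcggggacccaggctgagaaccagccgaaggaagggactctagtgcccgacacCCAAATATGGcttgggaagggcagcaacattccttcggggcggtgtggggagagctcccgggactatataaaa

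Ckm, chr7:19410844-19411093, plus strand: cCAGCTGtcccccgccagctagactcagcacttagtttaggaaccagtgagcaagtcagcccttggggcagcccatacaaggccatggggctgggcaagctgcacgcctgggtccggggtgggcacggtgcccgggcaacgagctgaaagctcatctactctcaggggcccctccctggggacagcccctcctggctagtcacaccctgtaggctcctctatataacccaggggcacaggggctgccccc

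Myh2, chr11:67170777-67171026, plus strand: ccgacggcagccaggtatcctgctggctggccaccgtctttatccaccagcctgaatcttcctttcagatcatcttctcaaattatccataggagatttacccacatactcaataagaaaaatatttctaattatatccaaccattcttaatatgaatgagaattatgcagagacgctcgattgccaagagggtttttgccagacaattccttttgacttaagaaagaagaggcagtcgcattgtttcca

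Myh1, chr11:67199852-67200101, plus strand: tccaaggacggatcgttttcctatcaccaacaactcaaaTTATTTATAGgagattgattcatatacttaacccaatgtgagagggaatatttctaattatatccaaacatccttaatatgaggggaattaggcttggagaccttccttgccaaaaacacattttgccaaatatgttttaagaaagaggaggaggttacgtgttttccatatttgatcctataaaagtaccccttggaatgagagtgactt

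The *Hhatl* stretch holds 3 E-boxes, and 66.2% of all 32851 RefSeq promoters hold at least 1 in the same length. The *Acta1* stretch holds 2 E-boxes and 1 CArG box, whose first base lies 73 bases before the start, and 1.47% of promoters hold a CArG box. The *Ckm* stretch holds 1 E-box. The *Myh1* stretch holds 1 MEF2 site, as 2.92% of promoters do, and the *Myh2* stretch none of the 3. These are matches of letters and were not tested as binding sites.

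The first comparison asked which of these genes differ between young and middle-aged bladders. *Myh2*, *Myh1* and *Tnnt3* were lower in middle age, with log2 fold changes from -2.54 to -1.06. A gene is called where edgeR's quasi-likelihood test gave a Benjamini-Hochberg adjusted p under 0.05 over all genes tested. Of the 8 members that passed the count filter (*Myh4* and *Pvalb* did not), 3 were called, all lower, beside 10.8% of all 16754 genes tested. The log2 fold change was -2.54 for *Myh2* (SE 0.64, adjusted p = 0.0245), -1.06 for *Tnnt3* (SE 0.24, adjusted p = 0.015) and -1.55 for *Myh1* (SE 0.46, adjusted p = 0.0483). *Mylk2* had a log2 fold change of -0.54 (SE 0.21, adjusted p = 0.114) and *Hhatl* of -0.76 (SE 0.26, adjusted p = 0.0776), neither called, and *Acta1* of -0.68 (SE 0.21, adjusted p = 0.0573). The median over the 8 was -0.72, against 0.0028 over all genes tested. The 3 calls depended on the fit. Leaving out 1 bladder at a time gave 1 to 5 called members, with 1 when any of middle-aged replicates 1, 2, 3 or 5 was left out and 5 without young replicate 4, and DESeq2 called 5.

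Of the 62 genes of the 6 skeletal muscle lists, 33 were tested over the same step and 4 were called, all lower, a share near the 10.8% of all genes. They were the slow troponin T *Tnnt1* (-0.80, SE 0.18), the calcium buffer of the sarcoplasmic reticulum *Casq1* (-0.94, SE 0.20), and *Jph1* (-0.17, SE 0.05) and *Stac3* (-0.53, SE 0.12), which couple membrane to store. None of the 9 smooth muscle genes was called in edgeR's test, and 1 of them had an unadjusted p under 0.05. Of 5 fibroblast genes, 3 (*Col1a1*, *Col3a1* and *Lum*) were lower. The summed fibroblast level was 5306 to 9553 TPM in young and 3896 to 4534 TPM in middle-aged bladders. Its part in the fall of the members was not tested.

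Between middle-aged and old untreated bladders, the contrast used to choose *Mylk2* and *Hhatl*, the members parted into 3 sets. *Mylk2* (-1.32, SE 0.20) and *Hhatl* (-1.41, SE 0.24) were lower. *Acta1* (-0.31, SE 0.14) and *Ckm* (-0.33, SE 0.06) were a little lower, and *Tnnt3* (-0.02, SE 0.17) and *Actn3* (0.09, SE 0.10) near level. *Myh1* (1.26, SE 0.29) and *Myh2* (1.56, SE 0.36) were higher. The median of the 6 sarcomere genes tested was 0.04, against -0.0047 over all genes tested. These are log2 fold changes given as a description. With the sarcomere level of each bladder as a covariate, the mean log2 CPM of the 8 genes after centring each gene, the values were -1.0 (SE 0.22) for *Mylk2* and -1.24 (SE 0.32) for *Hhatl*.

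A comparison of bladders outside the contrast used for the choice was made between the 15 gavaged old bladders, taken as the mean of the 3 groups, and the 6 young ones. The genes were chosen with earlier results of these data known, so it is not an independent test of them. In it, age and gavage cannot be told apart. Both genes fell, with log2 fold changes of -2.08 for *Hhatl* (SE 0.30, adjusted p = 2.93e-05) and -1.33 for *Mylk2* (SE 0.24, adjusted p = 0.00032). *Acta1* (-1.01, SE 0.14), *Tnnt3* (-0.99, SE 0.21) and *Ckm* (-0.40, SE 0.06) also fell, so that 5 of the 8 members tested were called, all lower, beside 29.4% of all 17788 genes. *Myh2* (-1.04, SE 0.47, adjusted p = 0.101), *Myh1* (-0.66, SE 0.51, adjusted p = 0.358) and *Actn3* (0.20, SE 0.16, adjusted p = 0.365) were not called. *Myh2* was called when young replicate 5, vehicle-treated replicate 1 or D+Q-treated replicate 1 was left out, which gave 6 called members. The median of the members tested was -1.0, against 0.00066 over all genes tested. The young bladders are shared with the comparison before last, so the 2 are not independent. With the sarcomere level as a covariate, *Mylk2* stood at -1.43 (SE 0.28, adjusted p = 0.00113) and *Hhatl* at -2.20 (SE 0.36, adjusted p = 0.000228). In each fit that uses it, this covariate weighs all 8 genes alike, *Myh4* and *Pvalb* near 0 counts among them. It need not track the amount of striated muscle, and the part of that amount in the fall was not tested.

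**Figure D3:**
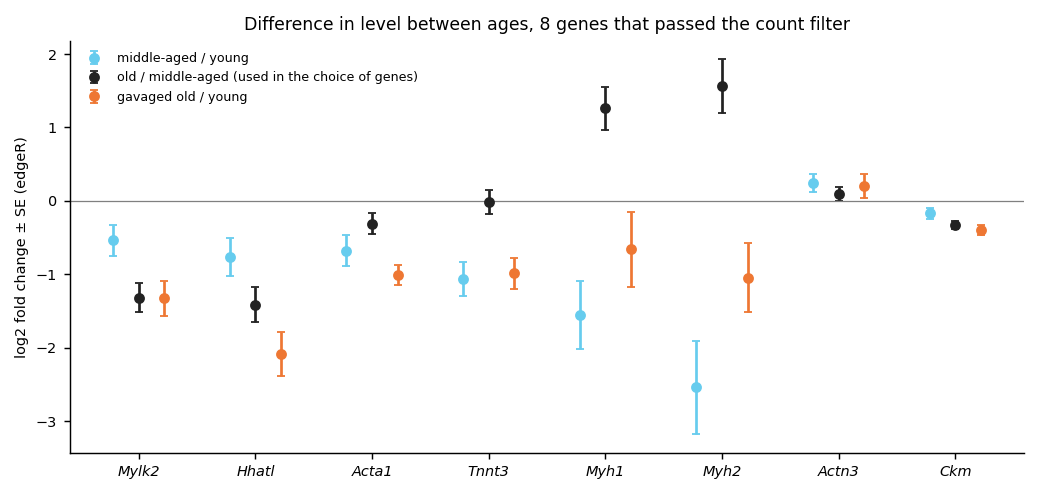
Log2 fold change with its SE for the 8 genes that passed the count filter, in 3 comparisons of ages. Middle-aged to old was used to choose *Mylk2* and *Hhatl*, so their sign there was fixed, and the other 2 comparisons share the young bladders. *Mylk2*, *Hhatl*, *Acta1* and *Ckm* are below 0 in all 3, as is *Tnnt3*, though barely from middle-aged to old. *Myh1* and *Myh2* are below 0 from young to middle-aged (-1.55 and -2.54) and above 0 from middle-aged to old (1.26 and 1.56).

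Of the 62 skeletal muscle list genes, 35 were tested, 9 were lower and 5 higher, beside the 29.4% called over all genes. *Myod1* (-3.22, SE 0.58), the myogenic regulator, *Myh8* (-2.38, SE 0.56), the perinatal heavy chain, *Myl1* (-1.43, SE 0.49), *Tnnt1* (-1.16, SE 0.17) and *Casq1* (-1.08, SE 0.17) were among the lower. *Scn4a* (2.28, SE 0.67), the muscle sodium channel, *Ttn* (1.48, SE 0.37) and *Tcap* (0.87, SE 0.32) were among the higher. Some of these genes varied widely within groups. *Scn4a* averaged 3.28 ± 3.50 TPM (SD) under water, 2.21 ± 2.79 under vehicle and 0.543 ± 0.291 under D+Q, against 0.331 ± 0.141 in young bladders. *Myh8* averaged 1.49 ± 1.97 TPM in young bladders and 0.244 to 0.313 in the gavaged groups. *Myod1* had 0 to 18 counts in a bladder, with 0 counts in 13 bladders. It was the only 1 of the 7 myogenic regulators that passed the count filter. Its mean was 0.671 TPM in young bladders, 0.080 under water, 0.181 under vehicle and 0.0157 under D+Q. *Myl1* had 0 to 24 counts in a bladder, with means of 0.774 TPM in young bladders, 0.297 under water, 0.303 under vehicle and 0.237 under D+Q. At so few counts a gene can pass the filter through the group where it is highest. The calls of *Myod1* and *Myl1* as lower are therefore not independent of the filter.

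Some smooth muscle genes and the fibroblast genes were lower as well, again beside 29.4% of all genes. *Acta2* (-0.26, SE 0.08), *Cnn1* (-0.29, SE 0.08), *Lmod1* (-0.28, SE 0.07) and *Smtn* (-0.36, SE 0.05) were lower, 4 of 9 smooth muscle genes, as was *Mylk* (-0.31, SE 0.05), the smooth muscle relative of *Mylk2*. The other 5 smooth muscle genes were not called, among them *Tagln* (0.17, SE 0.11) and *Des* (0.12, SE 0.10). *Hhat*, the relative of *Hhatl*, stood at -0.09 (SE 0.10) and was not called. All 5 fibroblast genes were lower. Summed smooth muscle levels ran from 26067 to 47704 TPM in young bladders and from 25372 to 36327 TPM over the 3 gavaged groups. The part of these changes in the fall of the members was not tested.

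Treatment was compared next, to see whether gavage or D+Q shifted these genes in bladders of 26 months. No member was called by edgeR in water-treated against old untreated bladders, where 1.0% of all genes were called. No member was called either in vehicle-treated against old untreated, D+Q-treated against old untreated, D+Q-treated against vehicle-treated or D+Q-treated against water-treated bladders, and in each of these 4 the share called over all genes was 0%. At an unadjusted p under 0.05 there was 1 member in water against untreated (*Actn3*, -0.49, SE 0.18), 1 in D+Q against untreated (*Ckm*, 0.17, SE 0.07) and 0 in the other 3. DESeq2 called 0 in all 5 comparisons, of the 5 to 8 members for which it gave an adjusted p.

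The values of *Mylk2* and *Hhatl* follow. Against old untreated bladders, *Mylk2* differed by 0.67 (SE 0.31) on the log2 scale under water, 0.60 (SE 0.32) under vehicle and 0.41 (SE 0.25) under D+Q, with adjusted p of 0.318, 0.624 and 0.486. *Hhatl* differed by -0.06 (SE 0.37), 0.11 (SE 0.43) and 0.24 (SE 0.26). D+Q against vehicle gave -0.19 (SE 0.34) for *Mylk2* and 0.13 (SE 0.44) for *Hhatl*. A p that misses the threshold at SEs of this size does not show that the groups were alike. In the D+Q group 1 bladder, replicate 1, held 39.7 CPM of *Myh2* against 4.76 to 14.7 in the other 5, and without it the D+Q to untreated value of *Myh2* went from -0.35 (SE 0.41) to -0.89 (SE 0.30, adjusted p = 0.181).

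The central question was then put to the spread within groups. Each gene's log2(CPM + 0.1) was centred on its group mean, so that differences of age and treatment play no part, and *Mylk2* and *Hhatl* were correlated with each sarcomere gene and with each other over the 32 bladders (17 relations, p from 100000 permutations within groups, 2-sided, adjusted over the 17). None of the 17 passed, 0 had an unadjusted p under 0.05, and the lowest adjusted p was 0.698. Values of r ran from -0.33 to 0.21, and 5 of the 17 were above 0. With Spearman's rho none of the 17 passed either.

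With *Acta1*, *Mylk2* had r = -0.15 (95% interval -0.50 to 0.24, permutation p = 0.419) and rho = -0.19 (permutation p = 0.312). Its highest r was with *Ckm*, at 0.19 (-0.20 to 0.53, permutation p = 0.336), with rho = 0.14 (permutation p = 0.495), and this was 0.08 without the 2 bladders farthest from the median of *Ckm*. Its lowest was with *Actn3*, at -0.31 (-0.62 to 0.08, permutation p = 0.227), with rho = -0.20 (permutation p = 0.354) and -0.05 without the 2 farthest. Of its 8 relations, 1 was above 0.

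*Hhatl* had r = -0.25 with *Acta1* (-0.57 to 0.15, permutation p = 0.228) and rho = -0.13 (permutation p = 0.516). With *Ckm* it had r = -0.16 (-0.51 to 0.23, permutation p = 0.442) and rho = -0.07 (permutation p = 0.724), and -0.39 without the 2 bladders farthest from the median of *Ckm*. Its lowest r was with *Myh2*, at -0.33 (-0.63 to 0.05, permutation p = 0.092), with rho = -0.30 (permutation p = 0.148) and -0.25 without the 2 farthest. Its highest, 0.21 with *Pvalb*, rested on counts at the floor and was -0.22 without the 2 farthest. *Mylk2* and *Hhatl* were not related to each other either, with r = -0.14 (-0.49 to 0.26, permutation p = 0.577) and rho = 0.04 (permutation p = 0.862). The intervals end between 0.05 and 0.55, so within-group relations of moderate strength were not detectable for every pair at these counts.

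**Figure D4:**
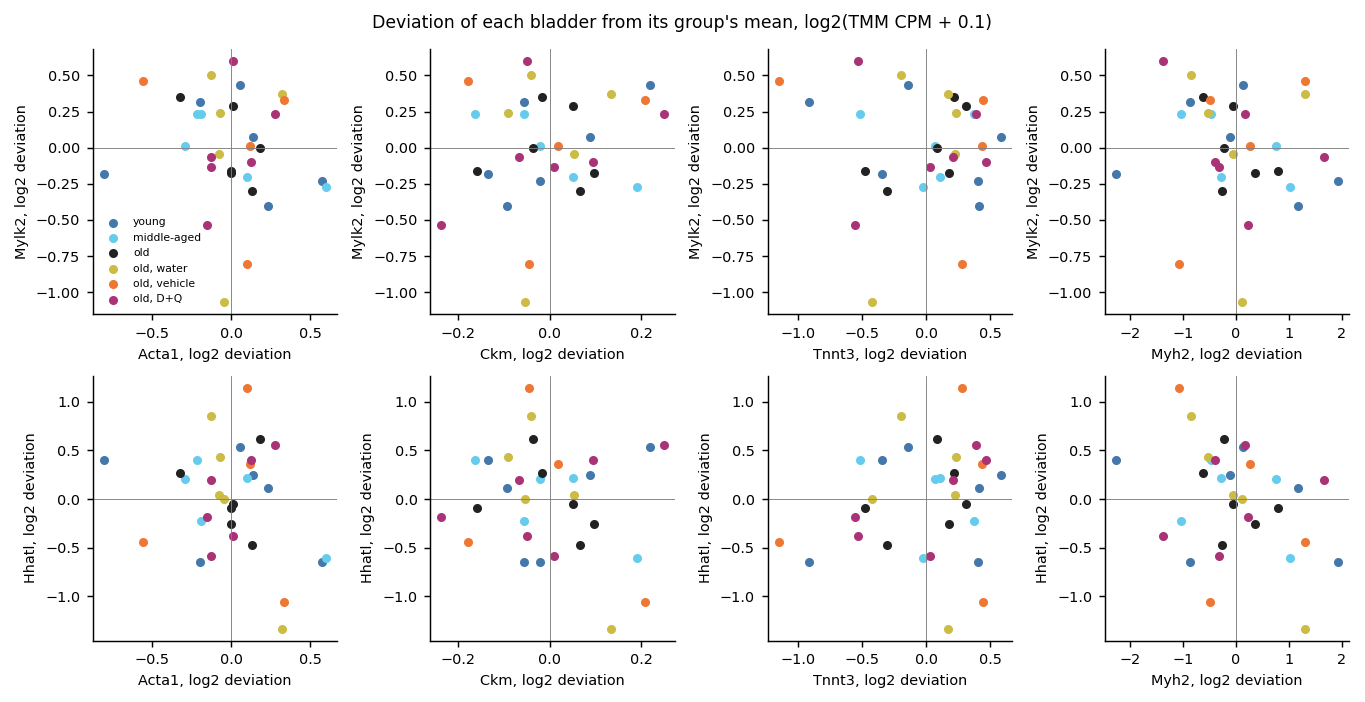
Deviation of each of the 32 bladders from its group mean, in log2(TMM CPM + 0.1), of *Mylk2* (top) and *Hhatl* (bottom) against *Acta1*, *Ckm*, *Tnnt3* and *Myh2*, coloured by group. None of the relations shown passed the test, with r from -0.33 (*Hhatl* with *Myh2*) to 0.19 (*Mylk2* with *Ckm*).

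Within the 3 groups of 6 bladders taken alone, the same 17 relations gave 51 values of r from -0.63 to 0.85, with a median of 0.01. In an exact permutation test 1 of them had a p under 0.05, *Hhatl* with *Actn3* in young bladders (r = 0.85, exact p = 0.0319, n = 6), and none passed over the 51 (adjusted p = 0.846). In the other 3 groups, of 4 or 5 bladders, no correlation was computed.

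The sarcomere genes, by contrast, were related among themselves in part. Of their 28 pairs, 2 passed. *Myh1* with *Myh2* had r = 0.76 (rho = 0.79, permutation p = 1e-05 for both, the smallest that the permutations can give, adjusted p = 0.00028) and 0.73 without the 2 farthest bladders, but these genes share 755 stretches of 75 bases, and the part of shared reads was not tested. *Acta1* with *Ckm* had r = 0.60 (permutation p = 0.00137, adjusted p = 0.0192), rho = 0.62 (permutation p = 0.00071) and 0.51 without the 2 farthest. *Ckm* with *Tnnt3* (r = 0.53, permutation p = 0.0102, adjusted p = 0.0948) and *Acta1* with *Tnnt3* (r = 0.51, permutation p = 0.0207, adjusted p = 0.14) did not pass.

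**Figure D5:**
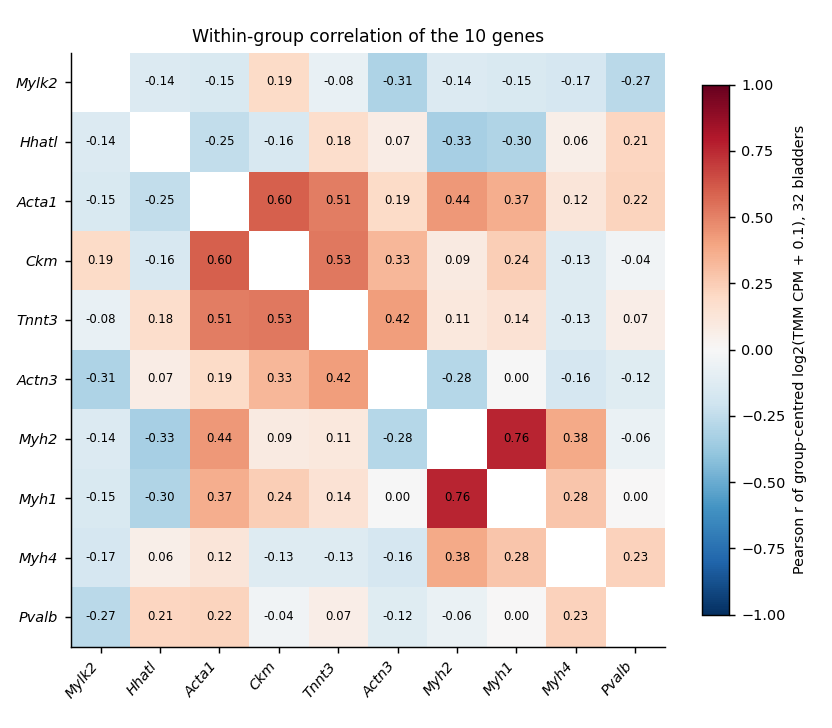
Pearson r of group-centred log2(TMM CPM + 0.1) for every pair of the 10 genes over 32 bladders, red above 0 and blue below. *Myh1* with *Myh2* (0.76) and *Acta1* with *Ckm* (0.60) are the 2 sarcomere pairs that passed, whereas *Mylk2* and *Hhatl* with the other genes run from -0.33 to 0.21.

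The sarcomere genes were also set against 9 smooth muscle genes, a set of 90 relations with all 10 genes that was added after the data had been seen. *Ckm* passed with 7 of the 9, *Acta1* with 6 and *Myh2* with 4, all positive, and *Myh1*, *Tnnt3*, *Actn3*, *Myh4* and *Pvalb* with none. *Acta1* followed the smooth muscle actin *Actg2* with r = 0.71 (permutation p = 0.00018, adjusted p = 0.0081), rho = 0.60 (permutation p = 0.00105) and 0.49 without the 2 farthest. *Myh2* followed *Synpo2*, an actin-bundling protein of smooth muscle, with r = 0.77 (permutation p = 4e-05, adjusted p = 0.0036), rho = 0.72 (permutation p = 8e-05) and 0.64 without the 2 farthest. *Mylk2* passed with none of the 9, with r from 0.02 to 0.32. *Hhatl* passed with 2, both negative, with r = -0.59 for *Myh11* (permutation p = 0.00216, adjusted p = 0.0272, rho = -0.56, permutation p = 0.00296, and -0.52 without the 2 farthest) and -0.47 for *Cnn1* (permutation p = 0.00462, adjusted p = 0.0321, rho = -0.43, permutation p = 0.0246, and -0.50 without the 2 farthest).

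The genes whose group-centred levels were most like each member were named last, by Pearson r over the 32 bladders among 18116 other genes that passed the count filter over all 6 groups, with no test. For *Mylk2* they began with Gm14022 (r = 0.74), *Ssu2* (0.60), Gm34376 (0.60), *Csl* (0.58), 2310034G01Rik (0.57) and *Apod* (0.57), followed by *Kcnj8*, *Sult2b1*, *Cfap77* and *Rergl* (0.56 to 0.55). None of these 10 is in a muscle list. Gm14022 averaged 0.274 CPM, a level of few counts. Of the sarcomere genes, *Ckm* stood at place 2395, with 13.2% of genes above it, *Tnnt3* at 10591, *Acta1* at 13061 and *Actn3* at 16739.

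For *Hhatl* they began with *Dhdh* (0.72), *Atp2a1* (0.71), *Slc22a3* (0.70), *Cep57* (0.68), *Tec* (0.67) and *Tcp11l2* (0.67), followed by Gm28424, *Scn4b*, Gm10851 and *St3gal6* (0.67 to 0.66). *Atp2a1*, the calcium pump of the fast-fibre sarcoplasmic reticulum, is the 1 gene of a muscle list among them. It averaged 1.03 TPM and was not called between gavaged old and young bladders (-0.06, SE 0.31, adjusted p = 0.907), where *Hhatl* fell. Of the sarcomere genes, *Tnnt3* stood at place 4487, with 24.8% of genes above it, *Acta1* at 15431 and *Myh2* at 16636. For comparison, *Ckm* stood at place 197 for *Acta1*, and *Myh1* at place 20 for *Myh2*.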

How the data were processed

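Per the labels and methods, the authors prepared stranded total RNA libraries, aligned reads with STAR 2.7.3 to mm10 and counted them per gene with Subread featureCounts; whether counting used the strand is not stated. The deposited count table holds these raw counts of 32285 genes in 32 bladders. A second deposited table holds log2 values made by the authors by length scaling to a sum of 100000 per bladder with 1 added. The authors' comparisons were not used.

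Counts were scaled by TMM and tested with edgeR 4.0.16 (filterByExpr, quasi-likelihood F test, Benjamini-Hochberg adjustment over all genes, threshold 0.05), with SE taken from the log2 fold change and F. Each fit held only the groups compared. Within-group relations used log2(CPM + 0.1) centred on group means and 100000 permutations within groups. The 95% intervals of r are from Fisher's z and were not adjusted. Floors of 3 counts cover counting error only. Labels number separate bladders, and p-values measure the spread between them. No 2 bladders held identical counts. Alternatives were DESeq2 1.42.0, limma 3.58.1 on the deposited log2 table, other scaling and filters, all groups in 1 fit, a replicate block, a sarcomere covariate and leaving out each bladder. On simulated counts for middle-aged against young, 80 of 100 genes changed by 1 and 97 of 100 changed by 2 on the log2 scale were recovered among 16754 genes. The changed genes were drawn at random from all genes tested. These shares need not hold for members at few counts (*Mylk2* and *Hhatl*) or with a wide spread (*Myh1* and *Myh2*).

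The 10 genes and the lists were chosen with earlier results of these data known. Named beside them were the 10 genes with the highest r to *Mylk2* and to *Hhatl*, and list members that passed or had the highest TPM. Defining markers at few counts, *Myh4* and *Pvalb* aside, were named after their values were seen. Analyses used R 4.3.3, Python 3.11.15, pandas 2.3.3 and scipy 1.17.1.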

Additional observations from a re-analysis of the deposited data

Results flagged for a closer look

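The 8 genes whose median over the 32 bladders was above 3 counts (all but *Myh4* and *Pvalb*) were examined in each of the 6 groups for a value far from the others of its group. Of 48 groups examined, 5 had such a value, where chance gives about 1 in 20. Of these values, 4 come from 2 bladders.

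Water-treated replicate 5 held 402 CPM of *Acta1*, against 294 to 311 in the other 4, and 47.8 CPM of *Myh2*, against 10.7 to 20.9. Without it, the water to old untreated log2 fold change of *Myh2* went from 0.17 to -0.31, neither called. D+Q-treated replicate 1 held 39.7 CPM of *Myh2*, against 4.76 to 14.7 in the other 5, and 2.98 CPM of *Myh1*, against 0.198 to 0.716. Without it, *Myh1* went from -0.66 to -1.51 (edgeR, adjusted p = 0.146) between D+Q-treated and old untreated bladders, and *Myh2* between gavaged old and young bladders went from -1.04 to -1.23 (edgeR, adjusted p = 0.0408) and was then called. Vehicle-treated replicate 1 held 5.0 CPM of *Tnnt3*, against 13.6 to 15.3 in the other 3. Without it, *Tnnt3* went from 0.10 to 0.36 between vehicle-treated and old untreated bladders and from 0.22 to -0.05 between D+Q-treated and vehicle-treated bladders, none of them called. The cause of these values was not tested.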

How the results depend on the processing

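Between young and middle-aged bladders, 3 members were called. DESeq2 called 5, limma on the deposited log2 values called 1, and the fit with the sarcomere level as covariate 0. That covariate is a mean that includes the sarcomere genes, so a fit of any of them is adjusted in part for itself. Its values and calls for sarcomere genes, here and below, are therefore no check of the main fit. The numbers of the titles do not pair bladders (same-number correlations -0.30 to 0.18 over 49 pairs); with them as a replicate block 0 members were called, and 1 with the numbers of the descriptions, a block added after the data were seen. Leaving out 1 bladder gave 1 (without middle-aged replicate 1, 2, 3 or 5) to 5 (without young replicate 4). Between gavaged old and young bladders, 5 were called in each of these fits but the covariate fit (4), and 5 to 6 with 1 bladder left out; under the covariate *Myh1* (0.46) and *Myh2* (0.32) turned positive, uncalled. *Hhatl* in vehicle against old untreated turned to -0.056 under the replicate block, -0.19 with the numbers of the descriptions and -0.17 with limma.

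Of the 17 relations, 0 passed, but 7 did without centring on group means, where group differences enter. The following values are of relations that changed sign in that setting, whether or not they passed. For *Mylk2*, r was 0.62 with *Hhatl*, 0.55 with *Acta1* and 0.40 with *Tnnt3*. For *Hhatl*, r was 0.56 with *Acta1*, 0.63 with *Ckm*, -0.29 with *Myh4*, -0.037 with *Pvalb* and -0.11 with *Actn3*. Other weak relations changed sign: *Mylk2* with *Hhatl* (0.036 by Spearman and 0.042 without the 2 farthest bladders), *Hhatl* with *Myh4* (-0.016 in the deposited log2 values, -0.056 without the 2 farthest), *Hhatl* with *Tnnt3* (-0.016 with the replicate block and -0.022 without the 2 farthest), *Mylk2* with *Tnnt3* (0.19 without the 2 farthest) and *Hhatl* with *Pvalb* (-0.22). With 1 bladder left out, values crossed 0 for *Hhatl* in D+Q against vehicle (-0.13 to 0.72), vehicle against untreated (-0.47 to 0.36) and water against untreated (-0.28 to 0.20), for *Mylk2* in D+Q against vehicle (-0.44 to 0.025), and for r of *Hhatl* with *Actn3* (-0.012 to 0.32), *Myh4* (-0.046 to 0.20) and *Pvalb* (-0.058 to 0.42), and of *Mylk2* with *Hhatl* (-0.24 to 0.067) and *Tnnt3* (-0.24 to 0.081); none was called. A minimum of 10 counts in every bladder left 5 members, without *Mylk2* and *Hhatl*, and gave no value. The low counts of *Mylk2* and *Hhatl* limit what the relations can show.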
